A study of Rattus norvegicus with 6 samples.

Results

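The fibrillar collagen chains Col1a1, Col1a2 and Col3a1, the small leucine-rich proteoglycans Dcn (decorin) and Lum (lumican), and the adhesive glycoprotein Fn1 (fibronectin) were followed in RNA of the rat superficial superior colliculus. These 6 genes of the 26402 listed were chosen by their Ensembl gene IDs, with the comparison of closed and open eyes in these libraries already known, in which Col1a2 was the single ID called lower by the authors' deposited table. The closed-against-open values below are therefore a description, and no test is read from them. The Ensembl IDs are ENSRNOG00000003897 (Col1a1), ENSRNOG00000011292 (Col1a2), ENSRNOG00000003357 (Col3a1), ENSRNOG00000004554 (Dcn), ENSRNOG00000004610 (Lum) and ENSRNOG00000014288 (Fn1). The symbols belong to the list that chose the genes, since the files carry IDs alone.

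The tissue was the layers of the midbrain that receive retinal input, taken from Sprague Dawley rats at postnatal day 20. In the closed group, glue held the lids shut between days 14 and 20 of age, and in the open group the eyes were open over those days. Each group comprised 3 libraries, labelled as batches A, B and C. The labels do not say what a batch shared or how many animals gave a library, so a p-value measures the spread between these libraries. Levels are polyadenylated RNA in FPKM, fragments scaled to transcript length and to the library's total, which allows genes of different length to be set side by side. The depth of each library is unknown, and summed FPKM ran from 331008 to 398847, lowest in both batch C libraries.

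Fibrillar collagens are secreted as long triple helices that assemble into the fibres giving tissue its tensile strength. The Col1a1 and Col1a2 chains together form type I collagen, and Col3a1 alone forms type III collagen, which is often laid down in the same fibres. Decorin and lumican bind collagen fibrils and regulate their spacing and width, and fibronectin is assembled by cells into a network on which other matrix is laid down. In brain, fibrous matrix of this kind lies mainly in the meninges and around larger vessels, while the tissue between neurons holds little of it. The set carries the name meningeal matrix, but lists of markers for fibroblasts, vessels, neurons and glia could not be matched to the IDs, so the cells that held these transcripts were not tested. In whole tissue, fewer cells of a type and less RNA per cell cannot be told apart.

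All 6 genes were readily measured and all passed the filter of a mean of at least 1 FPKM, as did 12351 IDs in all. Col1a1 had the highest mean at 24.3 FPKM, above 80.7% of those IDs. Col3a1 followed at 22.6 FPKM, Dcn at 15.5, Col1a2 at 14.5 and Fn1 at 13.2, and Lum was last at 7.81 FPKM, near the middle of the tested IDs (percentile 46). Lum was the lowest of the 6 in every library. Col1a1 and Col3a1 exchanged first place in closed B and open C, and Dcn, Col1a2 and Fn1 exchanged places 3 to 5 among libraries, so the order within each of these sets did not exceed the spread. In the authors' deposited table the mean normalized count was 4785 for Col1a1, 4084 for Fn1, 3535 for Col3a1, 1916 for Col1a2, 588 for Dcn and 257 for Lum. At such means counting alone would give a coefficient of variation of 1.45% for Col1a1 and 6.24% for Lum, if a library held about the mean count.

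Upstream sequence was at hand for Col1a2 and Lum from RefSeq on build GRCr8, and not for Col1a1, Col3a1, Dcn and Fn1. These are shown because they were the windows at hand, 1 from a collagen gene and 1 from a proteoglycan gene. Capitals mark CCAAT, here read on the reverse strand as ATTGG, and the TATA element TATAAA. The first stretch lies at chr4:33518307-33518421, plus strand, 250 to 136 bases before the annotated start of Col1a2, and the second at chr7:34245564-34245593, plus strand, 142 to 113 bases before that of Lum.
Col1a2: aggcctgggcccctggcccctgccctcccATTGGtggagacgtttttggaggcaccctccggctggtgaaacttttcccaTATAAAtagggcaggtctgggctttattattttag
Lum: gaggctggcgtgATTGGgctggtccccccc
Searched on both strands of the 250 bases before the start, CCAAT occurred once in each gene, and 34% of 33469 such windows held it. TATAAA occurred once for Col1a2 and not for Lum, against 12.9% of windows, and the GC box GGGCGG occurred in neither, against 30.5%. These are matches of letters only. In the order of protein-coding genes on the same assembly, Lum directly follows Dcn and precedes Kera, another proteoglycan gene of the family, and Col3a1 directly precedes Col5a2, another fibrillar collagen gene.

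The collagen chains were lower with closed eyes in every batch, by amounts that differed between batches. Col1a2 measured 11.1, 10.2 and 15.3 FPKM in closed libraries A, B and C and 14.1, 16.0 and 20.4 FPKM in the open libraries of the same batches. The closed library was the lower one of each pair, while closed C lay above open A, so the groups overlapped. All differences here are on the log2(FPKM + 0.5) scale, and closed minus open for Col1a2 was -0.34 for batch A, -0.63 for B and -0.41 for C. The group means were 12.2 ± 2.72 and 16.8 ± 3.21 FPKM (SD, n = 3 each), 27.8% lower in closed.

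For Col1a1, the partner chain of type I collagen, closed libraries A, B and C measured 22.1, 16.1 and 26.1 FPKM and open ones 24.6, 26.9 and 30.2 FPKM. Closed B was below the other 5 libraries, and closed C again lay above open A. The differences were -0.15 in A, -0.72 in B and -0.20 in C. Without closed B the difference of the group means was -0.17, and without both batch B libraries -0.18. The means were 21.4 ± 5.03 FPKM (closed) and 27.2 ± 2.78 FPKM (open; SD, n = 3 each).

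Col3a1, the chain of type III collagen, stood at 16.7, 16.8 and 24.8 FPKM in closed A, B and C and at 18.4, 23.1 and 35.6 FPKM in open A, B and C. Both batch C libraries were the highest of their group, and open C was 2.14-fold above closed A, the widest range of the 6 genes. The differences were -0.13 in A, -0.44 in B and -0.52 in C, and the means 19.4 ± 4.63 FPKM (closed) and 25.7 ± 8.93 FPKM (open; SD, n = 3 each). Without open C the difference of the means was -0.11, where the median over all tested IDs was -0.12. That leaves closed C without its pair, and without both batch C libraries the difference was -0.29.

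Fn1, the fibronectin gene, followed the collagens in direction with a more even size. It measured 12.1, 9.80 and 13.8 FPKM in closed A, B and C and 14.3, 13.0 and 16.3 FPKM in open A, B and C. Here closed C exceeded open B, and the order of the batches (C, then A, then B) was the same in both groups. The differences were -0.23, -0.39 and -0.23 in A, B and C, and the means 11.9 ± 2.01 FPKM (closed) and 14.5 ± 1.65 FPKM (open; SD, n = 3 each). Without closed B the difference of the means was -0.15, and without both batch B libraries -0.23.

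The proteoglycan genes differed little between the groups. Dcn, which encodes decorin, was nearly flat at 16.3, 14.5 and 16.0 FPKM in closed A, B and C and 15.8, 15.4 and 15.2 FPKM in open A, B and C, with differences of 0.04, -0.09 and 0.07. Its highest library was only 1.13-fold above its lowest, the narrowest range of the 6. Lum measured 8.63, 6.93 and 6.80 FPKM in closed A, B and C and 8.81, 7.71 and 7.96 FPKM in open A, B and C. Both batch A libraries were the highest of their group for Lum, where the collagens and Fn1 had batch C highest. The Lum differences of -0.03, -0.15 and -0.21 were all below 0 as deposited, but with the library medians made equal the difference in batch A was 0.03.

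**Figure D1:**
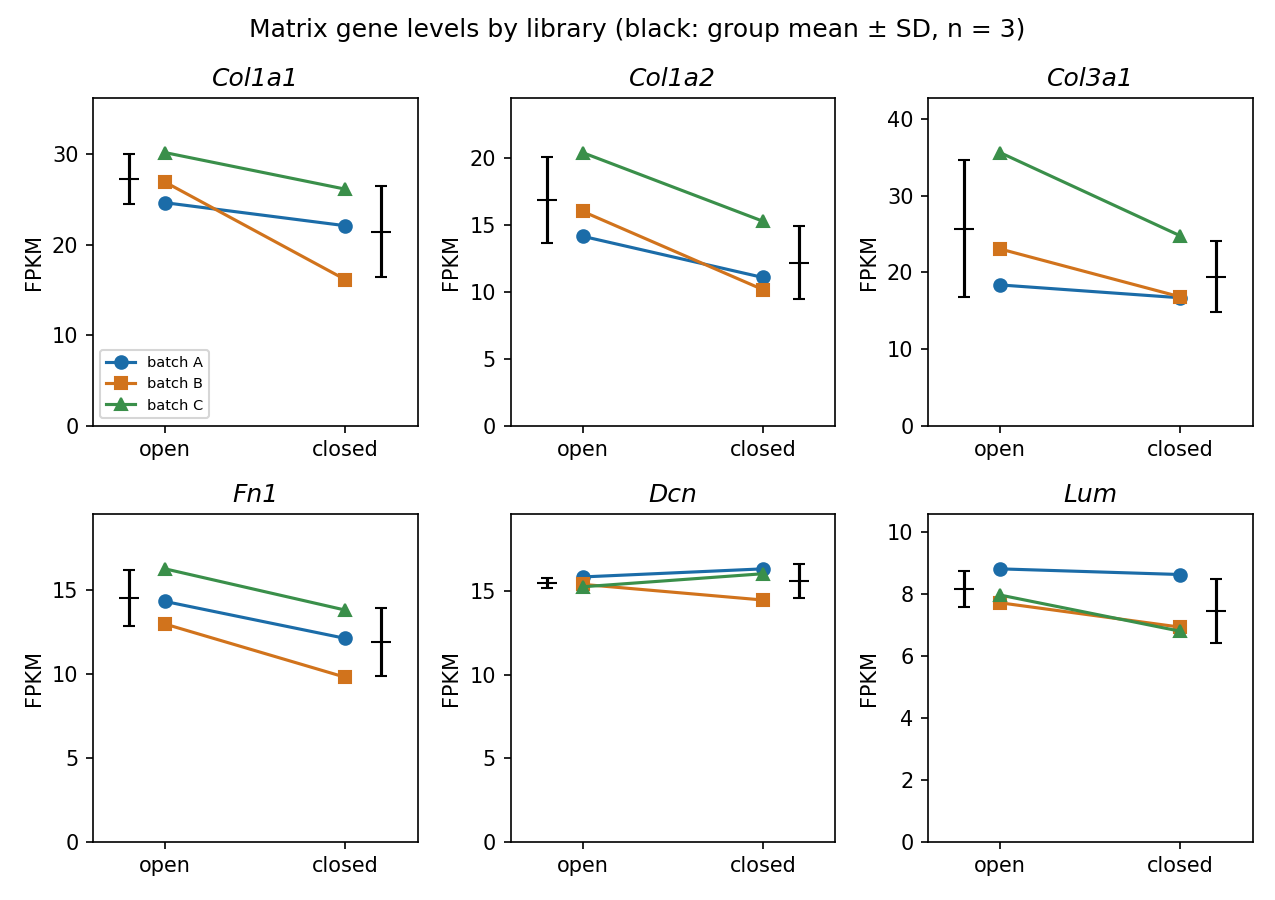
FPKM (y axis, from 0) of each gene in open and closed libraries, with a line joining the libraries of each batch and black bars for the group mean ± SD (n = 3). The lines of Col1a1, Col1a2, Col3a1 and Fn1 run down from open to closed in all 3 batches, while those of Dcn stay between 14.5 and 16.3 FPKM.

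In all, 5 of the 6 genes were lower in closed eyes in all 3 batches, where 19.5% of the 12351 tested IDs were. After median scaling, 4 of 6 were (Col1a1, Col1a2, Col3a1 and Fn1), where 14.1% of IDs were, and upper-quartile and quantile scaling gave those 4 as well. The median difference of the 6 genes was -0.32, against -0.03 for all tested IDs. It was -0.16 without closed B and -0.17 without open C, where all tested IDs had medians of -0.06 and -0.12. No member had closed and open values free of overlap, which 3.02% of tested IDs had. In limma fitted over all tested IDs, the difference was -0.46 for Col1a2 (SE 0.19 without and 0.07 with batch as a block), -0.37 for Col3a1 (SE 0.26 and 0.08), -0.36 for Col1a1 (SE 0.19 and 0.11) and -0.28 for Fn1 (SE 0.16 and 0.07). It was -0.13 for Lum (SE 0.13 and 0.07) and 0.01 for Dcn (SE 0.11 and 0.06). At an adjusted p under 0.05 limma called 0% of all tested IDs without the block (67 IDs had an unadjusted p under 0.05). With the block it called 0.0081% (780 IDs had an unadjusted p under 0.05). The 6 genes were not among the calls, which is not read as a test of them, since they were chosen with this contrast known.

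**Figure D2:**
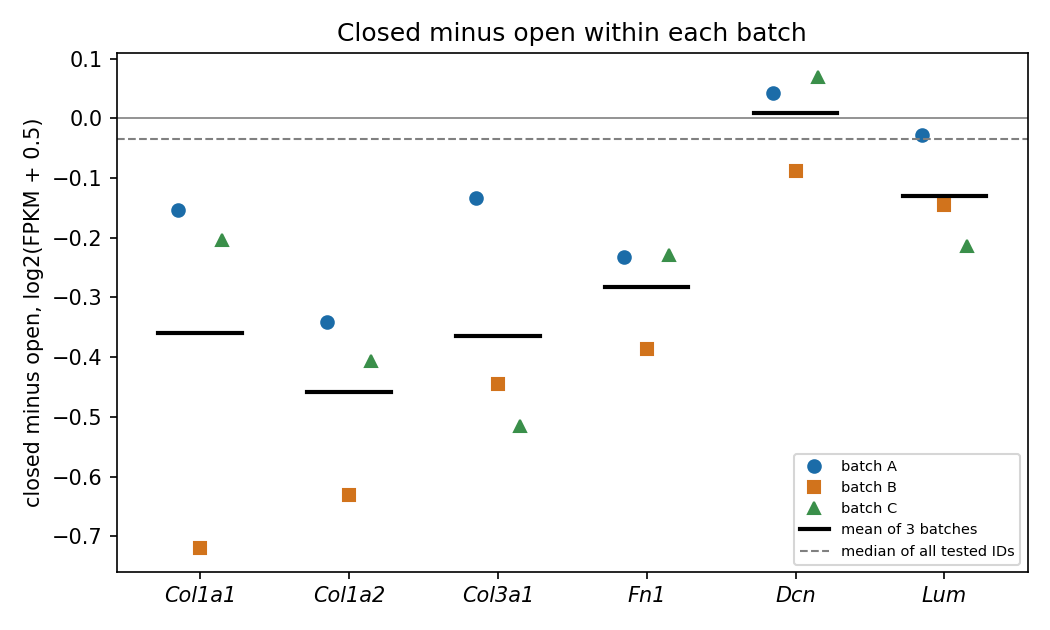
Closed minus open in log2(FPKM + 0.5) (y axis) for each gene and batch, with black lines at the mean of the 3 batches and a dashed line at the median of all tested IDs (-0.03). Col1a1 shows the widest spread between batches, from -0.72 in B to -0.15 in A, and Dcn lies on both sides of 0.

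The authors' deposited table, whose folds are turned here to closed over open, gave differences of the same sign and smaller size for the collagens and Fn1. By its label it comes from DESeq2 and compares closed with open, and the settings of that fit are not stated. Its signal is by its size a normalized count and not FPKM. The sizes are therefore not on the same measure. Its log2 fold was -0.36 for Col1a2, -0.26 for Col3a1, -0.20 for Fn1 and -0.16 for Col1a1. Lum was at -0.02 and Dcn at 0.07 in the authors' deposited table. Among the 20347 IDs with a p-value in the authors' deposited table, Col1a2 ranked 6, Col3a1 16, Fn1 58 and Col1a1 615 by p, and Dcn and Lum ranked 5040 and 15421. The authors' deposited table called 1 of the 6 lower, Col1a2 (adjusted p = 0.00408), where 0.00491% of IDs were called lower. These ranks come from the contrast by which the genes were chosen and from the same libraries as the FPKM values.

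Ratios within a library do not change when each library is scaled by 1 factor, as in median and upper-quartile scaling. Col1a2 relative to Dcn was 0.678, 0.703 and 0.952 in closed A, B and C and 0.893, 1.04 and 1.34 in open A, B and C, so it was lower in closed in each batch. The Col1a2 transcript thus differed unequally from that of decorin, without saying which of the 2 differed. Col1a1 relative to Col1a2 was 1.77 ± 0.209 (closed) and 1.63 ± 0.137 (open; SD, n = 3 each), with overlapping values. That ratio was lower in closed B (1.59) than in open B (1.68), but higher in closed than in open C (1.71 and 1.48), and likewise in A. Lum relative to Dcn was 0.477 ± 0.0523 (closed) and 0.527 ± 0.0278 (open). It was lower in closed than in open A (0.529 and 0.556), B (0.479 and 0.501) and C (0.424 and 0.522), though the groups overlapped. Col3a1 relative to Col1a1 was near 0.75 in both batch A libraries (0.756 closed, 0.746 open), and highest in open C (1.18) and closed B (1.04).

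The batches differed in some of these genes too. Batch levels average over closed and open libraries, but the error of this comparison is the spread of the closed-minus-open differences between batches, so it is not wholly separate from the contrast by which the genes were chosen. With eye condition as a term, the limma F test across the 3 batches called Col3a1 (adjusted p = 0.00215), Col1a2 (adjusted p = 0.00573) and Fn1 (adjusted p = 0.0128), 3 of the 6 genes, where 49.7% of all tested IDs were called. Lum (adjusted p = 0.0744), Col1a1 (adjusted p = 0.0946) and Dcn (adjusted p = 0.505) did not pass. Without the term for eye condition 0 of the 6 genes passed (limma adjusted p = 0.333 for Col1a2, 0.0819 for Col3a1 and 0.114 for Fn1), since the closed-minus-open difference then counts as spread. In that fit 6012 of the 12351 tested IDs were still called, against 6138 with the term. A share of 3 in 6 is near the background, and as deposited the direction was the less usual one. In batch C against A the median over all tested IDs was -0.21, with 5.15% of IDs called higher in C and 40.5% lower. Against B the median was -0.20, with 4.57% called higher and 37.3% lower. After median scaling the directions were nearly even, with 12% called higher and 14.5% lower in C than in A. Against B the scaled shares were 11.7% and 12.5%.

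Col3a1 was 1.68-fold higher in batch C than in A (log2 difference 0.75, SE 0.10, limma adjusted p = 0.00124) and was higher than in B as well (0.58, SE 0.10, adjusted p = 0.00341). Col1a2 was 1.39-fold higher in C than in A (0.48, SE 0.09, limma adjusted p = 0.00432) and 1.37-fold higher than in B (0.45, SE 0.09, adjusted p = 0.00615). Fn1 was 1.31-fold higher in C than in B (0.39, SE 0.08, limma adjusted p = 0.0068) and did not pass between A and C (0.18, SE 0.08, adjusted p = 0.103). Col1a1 passed in neither, at 0.26 (SE 0.14, limma adjusted p = 0.169) against A and 0.42 (SE 0.14, adjusted p = 0.0513) against B. Lum and Dcn lay between -0.23 and 0.07 in both. No gene of the 6 passed between A and B, where 1.64% of IDs were called higher and 1.72% lower in B.

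**Figure D3:**
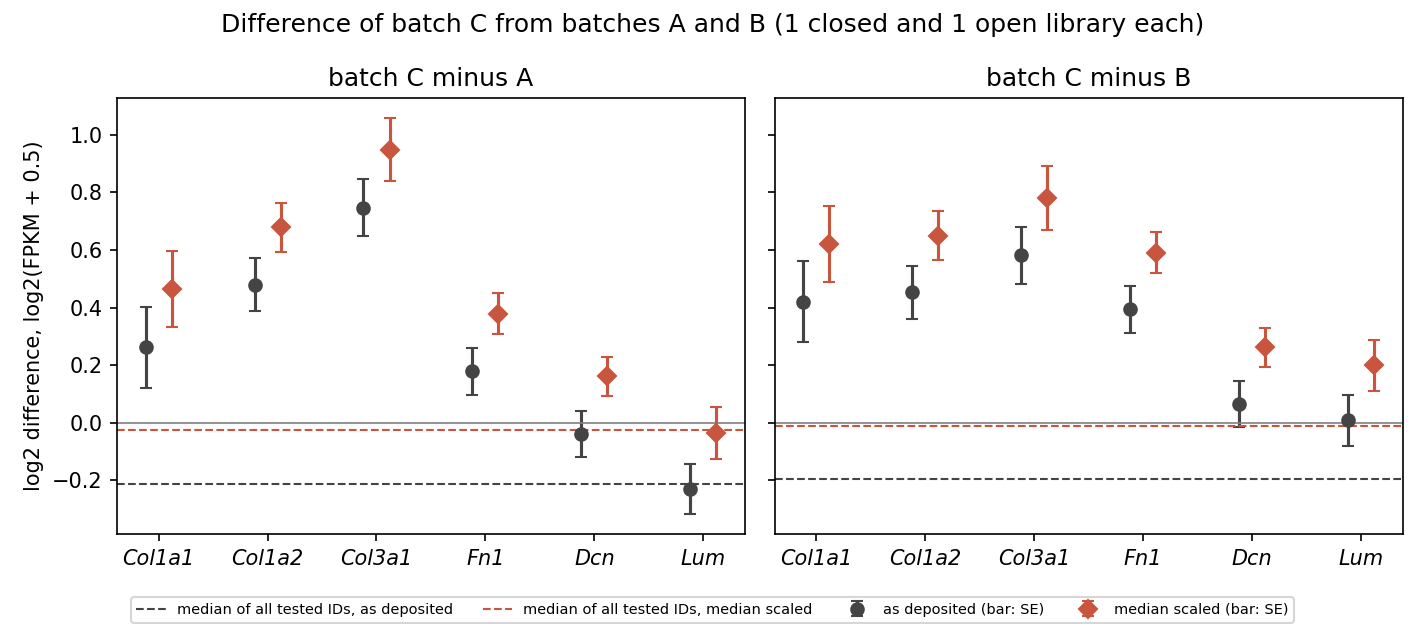
Log2 difference (y axis) of batch C from A (left) and from B (right) for each gene with its SE, as deposited (circles) and after median scaling (diamonds). Dashed lines mark the median of all tested IDs, which lies near -0.2 as deposited and near 0 after scaling, and the collagens lie above it under both.

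Relative to the median of each library, the differences of batch C from A and B were larger for the collagens and Fn1, while that of Lum from A shrank from -0.23 to -0.04 and those between A and B hardly moved. After median scaling, Col1a1, Col1a2, Col3a1 and Fn1 were called higher in C than in A, where 12% of IDs were, at log2 differences of 0.46, 0.68, 0.95 and 0.38 (limma adjusted p = 0.0467, 0.00499, 0.00425 and 0.0131). The same 4 genes were called higher in C than in B, where 11.7% of IDs were, at 0.62, 0.65, 0.78 and 0.59 (limma adjusted p = 0.0228, 0.0068, 0.00808 and 0.00595). Dcn was called there as well, at 0.26 (limma adjusted p = 0.0356), and Lum was not, at 0.20 (adjusted p = 0.145). With 2 libraries a batch these calls rest on few samples, and leaving out 1 library leaves 1 in its batch. As deposited, the F test called fewer of the 6 genes without closed C, open C or closed B, and more without open B. Fewer of all tested IDs were called in each of these fits too. That was also so without closed A or open A, where the same genes of the 6 stayed called. Why the calls changed was not tested.

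Set against each other, batch and eye condition took different shares of each gene's variation over the 6 libraries. For Col3a1, batch held 71.8% of the variation of the log2 values (as a sum of squares) and eye condition 23.3%. For Col1a2 the shares were 46.1% and 50.2%, for Fn1 54.9% and 42.2%, and for Col1a1 38.2% and 41%. Lum, at 68.4% and 23.4%, was divided much as Col3a1 was, while eye condition held 0.539% for Dcn. The remainder, which neither explains, was 3.67% for Col1a2, 2.88% for Fn1 and 20.8% for Col1a1. Over all tested IDs the median shares were 81.2% for batch, 4.37% for eye condition and 9.66% for the remainder. Dcn varied least (SD 0.06 on the log2 scale over the 6 libraries, against a median of 0.18), and 38.5% of its small variation was remainder.

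The collagens and Fn1 moved together across the 6 libraries, while Dcn and Lum followed them little as deposited and more closely after median scaling. Over the 6 pairs among Col1a1, Col1a2, Col3a1 and Fn1, Pearson's r of log2(FPKM + 0.5) ran from 0.77 to 0.94 and Spearman's rho from 0.77 to 1. Col1a1 and Col1a2 placed the 6 libraries in the same order (rho = 1, r = 0.92): closed B lowest, then closed A, open A, closed C, open B and open C. Between these 4 genes and Dcn or Lum, r ran from -0.16 to 0.47 and rho from -0.31 to 0.31, and Dcn with Lum gave r = 0.48 and rho = 0.26. Of those 8 pairs of the 4 genes with Dcn or Lum, Col3a1 with Dcn (r = -0.06) and Col3a1 with Lum (r = -0.16) were negative. The sign of the others depended on closed B, the lowest or next lowest library for each gene. Without closed B, r over the 8 pairs ran from -0.90 to -0.10, and without both batch B libraries from -0.98 to -0.17. Over all pairs of tested IDs the median r was 0.34 (quartiles -0.22 and 0.72). The libraries share 3 batches and 2 conditions and are not 6 independent points, so these are descriptions with no p.

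**Figure D4:**
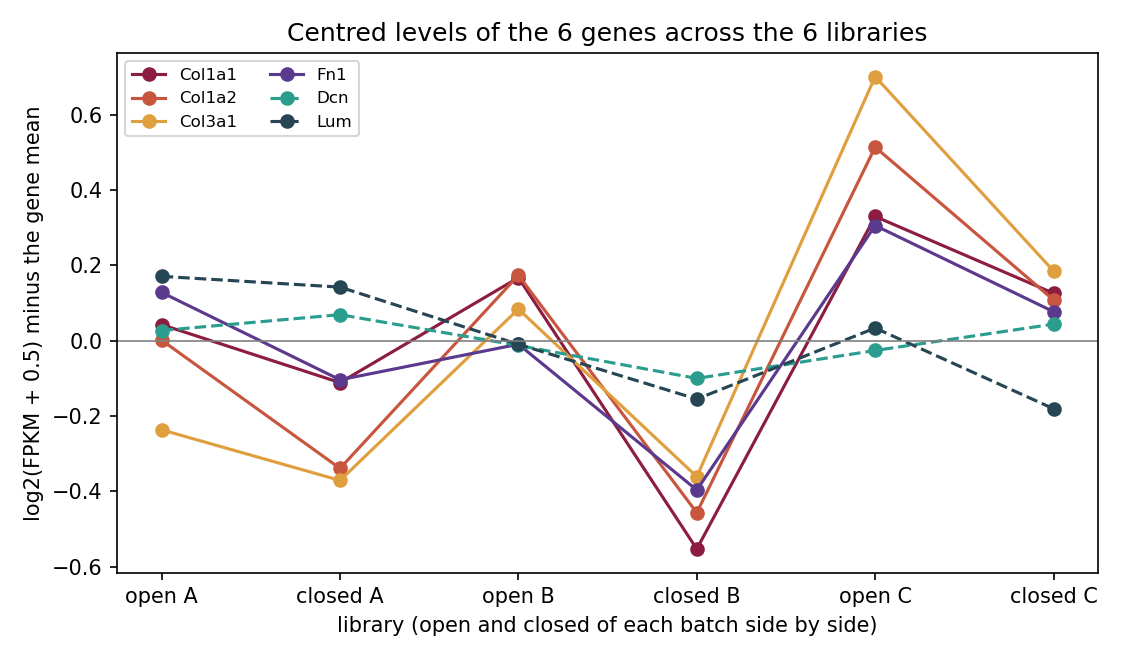
Centred level (y axis, log2(FPKM + 0.5) minus the mean of each gene) in the 6 libraries, open and closed of each batch side by side. Col1a1, Col1a2, Col3a1 and Fn1 (solid) are lowest in closed B or closed A and peak in open C, while Dcn and Lum (dashed) stay within 0.2 of their mean.

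How far Dcn and Lum parted from the other 4 genes depended on the scaling and on whether batch levels were kept. With batch means removed, which leaves the closed-minus-open differences of the 3 batches, Lum gave r = 0.99 with Col3a1, 0.88 with Col1a2, 0.85 with Fn1 and 0.77 with Col1a1, and Dcn gave -0.03 to 0.46 with these genes. Over all pairs of IDs the median was then 0.13 (quartiles -0.42 and 0.61). Genes lower in closed in all 3 batches must give a positive r here, so these values restate the contrast by which the genes were chosen. With group means removed instead, Lum gave -0.51 to 0.09 and Dcn -0.02 to 0.67. After median scaling the 6 pairs among the collagens and Fn1 gave r from 0.87 to 0.96, and the 8 pairs of those with Dcn or Lum gave 0.39 to 0.79. The median over all pairs of IDs was then 0 (quartiles -0.46 and 0.47). Such scaling shifts all genes of a library nearly alike (library medians 7.88 to 9.39 FPKM), while Dcn varied little as deposited (SD 0.06). How much of the rise in r for Dcn came from that shift was not tested. Without open C, the highest library for each of the 4 genes, r among them ran from 0.57 to 0.93, and without both batch C libraries from 0.47 to 0.91. With the 2 libraries farthest from the median of the first gene of each pair left out, it ran from 0.53 to 0.99. Other IDs were as close or closer: among 12350 IDs ranked by r with Col1a2, Col3a1 came 65, Col1a1 83, Fn1 127, Dcn 2754 and Lum 2909.

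**Figure D5:**
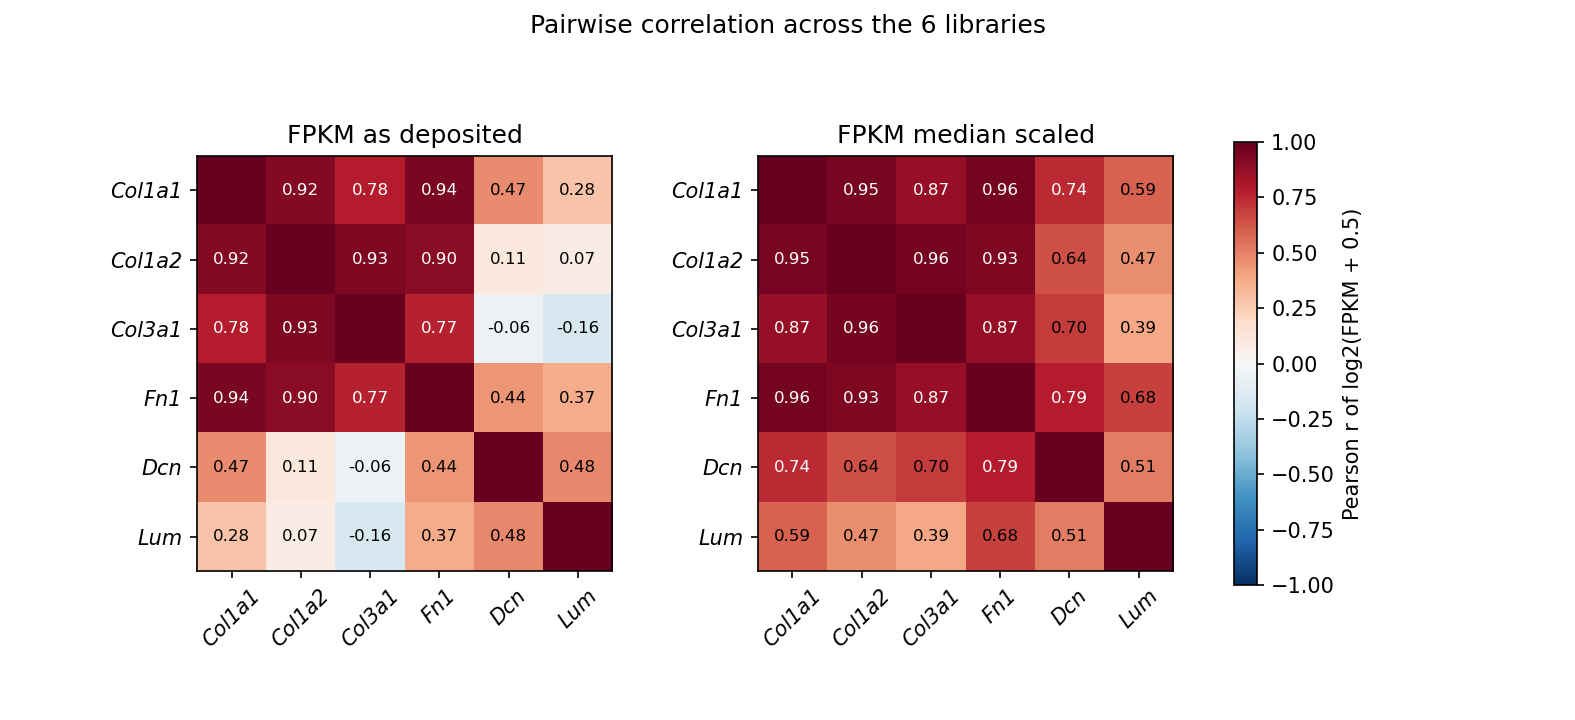
Pearson's r of log2(FPKM + 0.5) across the 6 libraries for each pair of genes, as deposited (left) and median scaled (right), on a colour scale from -1 to 1. The block of Col1a1, Col1a2, Col3a1 and Fn1 holds values of 0.77 or more on both sides, and the rows of Dcn and Lum change most with scaling.

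Likeness to the mean centred profile of the 6 genes was ranked over all 12351 tested IDs. Col1a2 ranked 13 (r = 0.97), Col1a1 15 (r = 0.97), Fn1 23 (r = 0.96), Col3a1 175 (r = 0.88), Dcn 2053 (r = 0.31) and Lum 2289 (r = 0.24), and each of these also contributed to the profile. The closest other IDs were ENSRNOG00000004806 (r = 0.99, 20.2 to 24.4 FPKM) and ENSRNOG00000014395 (r = 0.99, 2.04 to 2.98 FPKM), both lowest in closed B and highest in open C. The most opposite were ENSRNOG00000019047 (r = -0.98, 40.5 to 50.7 FPKM) and ENSRNOG00000019027 (r = -0.98, 26.0 to 29.7 FPKM), both highest in closed B. ENSRNOG00000014395 was again among the closest 2 after median scaling, and the other 3 were not among the closest or most opposite 2 there. After median scaling r with the profile was 0.77 for Dcn (rank 1558) and 0.59 for Lum (rank 2777).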

How the data were processed

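The authors deposited FPKM for 26402 Ensembl gene IDs in 6 libraries, and, for 26403 IDs, a table of their own comparison. Per the file headers it gives an expression signal, which from its size is a mean normalized count, and p-values beside a log2 fold. Build rn5, Cufflinks 2.1.1, featureCounts 1.4.4, STAR and DESeq2 1.4.1 are listed, without roles, per the submitters' processing notes. The label of that comparison reads closed vs open, but the deposited log2 fold was read as open over closed. With that reading, 74% of 11147 IDs with a mean normalized count of at least 100 had the sign of the FPKM difference.

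FPKM was analysed as log2(FPKM + 0.5) with limma 3.58.1 in R 4.3.3 (trend and robust moderation, two-sided, Benjamini-Hochberg over all IDs tested, separately for each contrast), where an ID averaged 1 FPKM or more. The fit was tested on simulated data. Each batch letter is a label shared by both groups and so pairs them. With group means removed, libraries of one batch correlated at 0.36 to 0.52 across IDs.

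The 6 genes, the lists and the tests were chosen with earlier results of these data known. All 6 symbols were in the RefSeq table (47357 rows), which holds 0 Ensembl IDs. Planned lists of collagen processing, proteoglycan, basement membrane, receptor and cell type marker genes were therefore not used. IDs beyond the 6 genes were named by likeness of profile (Pearson's r), limited to 2 in each direction. Promoter windows were matched for 2 genes.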

Additional observations from a re-analysis of the deposited data

How the results depend on the processing

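In limma without the block, closed against open gave 0 calls in every planned pseudocount, filter, scaling and moderation. Leaving out 1 library gave 0 to 3 calls. With the replicate block limma gave 1 call, and 6, 16 and 2 calls without batch A, B and C. With the block and median scaling, added after seeing the data, it gave 0. In all 19 alternatives the differences of Col1a1 (-0.51 to -0.17), Col1a2 (-0.63 to -0.32), Col3a1 (-0.57 to -0.11), Fn1 (-0.39 to -0.15) and Lum (-0.23 to -0.07) stayed below 0. That of Dcn ran from -0.02 to 0.06. The filters, the plain moderation and the block over all libraries cannot alter these differences. Their sign is also part of the contrast by which the genes were chosen. The median of the 6 ran from -0.45 to -0.16, and that of all tested IDs from -0.12 to 0.03. The values nearest 0 came without closed B for Col1a1 and Fn1, without open C for Col1a2 and Col3a1, and without closed C for Lum.

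Between batches, 6138 IDs were called, against 3650 with median, 3462 with quantile and 3730 with upper-quartile scaling, and 1658 to 4875 without 1 library. Of the 6 genes 3 were called, 4 with median, quantile or upper-quartile scaling, and 0 without the term for eye condition. Leaving out 1 library, which leaves 1 in its batch, gave fewer, as many or more. The median r over the 15 pairs was 0.47. It was -0.17 without batch B, and -0.10 to 0.69 without 1 library, lowest without closed B. It was 0.74 with median and 0.78 with upper-quartile scaling, and 0.64 with group means removed. With batch means removed, which leaves only the closed-minus-open differences, it was 0.85. Leaving out libraries means fewer samples, and the cause was otherwise not tested. The order of the mean levels was the same after median scaling. Sequencing depth is unknown, so no interval for counting error is given.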
